A study of Mus musculus with 8 samples.

Results

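The genes described here encode the protein subunits of the mitochondrial ribosome (mitoribosome). Every row whose symbol begins with *Mrpl* or *Mrps* followed by a digit was taken, which gave 79 of the 15039 genes with deposited values. The members comprised 50 *Mrpl* and 29 *Mrps* symbols. By the position of the protein in the mammalian mitoribosome, 51 belong to the large subunit and 26 to the small subunit. Despite their *Mrps* symbols, *Mrps30* and *Mrps18a* are among the 51, since their products sit in the large subunit. The remaining 2 members are *Mrps36*, which encodes a component of the oxoglutarate dehydrogenase complex, and *Mrpl23-ps1*, a processed pseudogene of *Mrpl23*.

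The mitoribosome translates the small set of mRNAs that the mitochondrial genome encodes, all of which specify subunits of the oxidative phosphorylation (OXPHOS) complexes. Its rRNAs come from the mitochondrial genome, whereas its proteins are encoded in the nucleus, made in the cytosol and imported. Some of these proteins have a counterpart in the bacterial ribosome, and others were added during the evolution of mitochondria. Neurons rely heavily on OXPHOS for the ATP that supports synaptic transmission and ion pumping.

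RNA was taken from the prefrontal cortex (PFC) of wild-type male mice of the strain C57BL/6NCrljOri that had received a bilateral injection of AAV2/1 at 6 weeks of age. In 4 libraries (Rnf146-overexpressing mice) the virus carried mouse *Rnf146* together with eGFP, and in 4 libraries (eGFP-overexpressing mice) it carried eGFP alone. RNF146 is an E3 ubiquitin ligase that recognises poly-ADP-ribosylated proteins such as axin. Both vectors used the human synapsin promoter, which is active in neurons, so other cell types in the dissected tissue were not the target of the transgene. The PFC was dissected 4 weeks after injection, and libraries were made from polyadenylated RNA of bulk tissue. In bulk tissue, fewer cells of a type and less RNA per cell cannot be told apart.

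The deposited values were on a log2 scale between 7.86 and 18.8, and they had been centred within same-numbered libraries. Within a gene, the sum of the eGFP and Rnf146 values was identical for the 4 pairs (the sums differed by at most 1.4e-13). Each gene therefore carried a mean value and 4 pair differences, given throughout as the Rnf146 value minus the eGFP value. On such values the groups overlap exactly when the 4 differences do not share a sign. Read totals are not part of the values, so the depth behind them is unknown. The difference of *Rnf146* itself was 2.64 ± 0.13 (SD, n = 4 pairs) and ranged from 2.51 to 2.82 over the pairs. Its adjusted p was 3.2e-07 in limma, where the replicate number entered the model as a block.

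Some markers of other regions and cell types also differed between the groups. The 10 striatal marker genes had an average difference of -0.11, 1.32, 0.70 and 0.28 in pairs 1 to 4, and 0 were called. The averages of their libraries ranged from 9.84 to 10.56 in the eGFP group and from 10.45 to 11.16 in the Rnf146 group. The 8 oligodendrocyte markers differed by -0.13, 0.47, 0.90 and 0.55, and 0 were called. Their library averages ranged from 11.93 to 12.45 and from 12.32 to 12.83 in the eGFP and Rnf146 groups. All 5 septal markers in the table (of 8 listed) were called higher, and their library averages ranged from 9.44 to 9.63 and from 9.96 to 10.15 in the eGFP and Rnf146 groups. All 10 excitatory cortical markers were present, 2 of them were called lower, and their library averages ranged from 11.95 to 12.08 and from 11.75 to 11.88. Of the 6 inhibitory markers, *Gad1*, *Gad2* and *Slc32a1* were called higher, while *Vip*, *Sst* and *Pvalb* had differences of -0.230, -0.057 and -0.027 and were not called. Both ependymal markers in the table (of 4 listed) were called higher. The 6 microglial markers averaged -0.192, -0.284, -0.102 and -0.127 in pairs 1 to 4. Every pair was below 0 for 5 of these markers, but 0 were called. The 6 astrocyte and 5 endothelial markers averaged -0.032 ± 0.039 and 0.0041 ± 0.0943, and 0 were called. The part of these shifts in the values of mitoribosomal genes was not tested.

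A pair of members share most of their sequence, which bears on the member with the lowest difference. *Mrpl23*, on chromosome 7 of GRCm39 (142086423 to 142094486, plus strand), has several exons. *Mrpl23-ps1* is a single exon on chromosome 2 (74421674 to 74422253, minus strand). Their canonical transcripts were identical over 540 bases, which is 78.0% of the *Mrpl23* transcript and 93.1% of the pseudogene. From the start codon on, 524 bases matched without a break, more than the 438 coding bases of *Mrpl23*. The first 150 coding bases of *Mrpl23* (spliced) and the same stretch of the pseudogene (chromosome 2, 74422087 to 74422236), read from GRCm39 with the start codon in capitals, were as follows.

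Mrpl23: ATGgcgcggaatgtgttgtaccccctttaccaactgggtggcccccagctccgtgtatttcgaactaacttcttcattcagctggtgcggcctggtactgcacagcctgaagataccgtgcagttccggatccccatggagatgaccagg
Mrpl23-ps1: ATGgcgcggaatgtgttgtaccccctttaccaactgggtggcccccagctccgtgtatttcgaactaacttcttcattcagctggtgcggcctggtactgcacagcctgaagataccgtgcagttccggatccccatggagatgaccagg

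Reads from this stretch could belong to either gene, so the split between the *Mrpl23* and *Mrpl23-ps1* values is uncertain. Of the 79 members, 6 have a copy elsewhere in the annotated transcripts with at least 95% identity over most of their own transcript. Apart from *Mrpl23* and its pseudogene, none of those copies was in the table. Over a shorter stretch of at least 200 bases, 19 members had a match of at least 95% identity. Not every match was a copy elsewhere. *Mrps6* and *Mrps15* matched *Slc5a3* and *Oscp1*, which overlap them on the same strand. *Mrps26* matched many transcripts, most of them over little more than 200 bases. The 19 also included *Mrpl48* (98.1% identity over 636 bases) and *Mrps33* (99.7% over 321 bases), whose copies were not in the table.

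No mitoribosomal gene passed the test for a difference between Rnf146- and eGFP-overexpressing mice. A gene counted as called when its adjusted p was 0.1 or smaller, and with limma and the replicate block this held for 0 of the 79 members and for 1.25% of all genes (0.818% higher and 0.432% lower). An unadjusted p below 0.05 was reached by 4 members (5.06%), against 12.4% of all genes. These were *Mrpl23*, *Mrps23* and *Mrpl48*, with differences below 0, and *Mrps33*, with a difference above 0. Of the 79 mean differences, 42 were above 0 and 37 below.

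The differences were also small in size. The largest absolute mean difference of a member was 0.175, a size exceeded by 6.56% of all genes. In 73 members it was under 0.1 and in 52 (65.8%) it was under 0.05, compared with 50.4% of the 8455 genes whose mean value lay in the same range as the members. The SD over the 4 pairs had a median of 0.0848 in the members and 0.101 in those genes. The median absolute mean difference was 0.032 in the members and 0.049 in those genes. It was 0.031 in the cytosolic ribosomal protein genes, 0.036 in the nuclear OXPHOS genes and 0.042 in genes of 2176 bases or shorter. Small differences were therefore not particular to the members. The 95% interval of the difference lay within ±0.2 for 65 members and within ±0.3 for all 79, but within ±0.1 for 0 members. Since no interval lay wholly inside ±0.1, a true difference beyond that size remained possible for each member. The transformation of the values was not stated, and if it stabilised the variance, changes of weakly expressed genes would be compressed. The mean values of the members ran from 8.72 (*Mrpl23*) to 10.85 (*Mrpl3*) with a median of 9.79, close to the median of 9.87 over all genes.

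**Figure D1:**
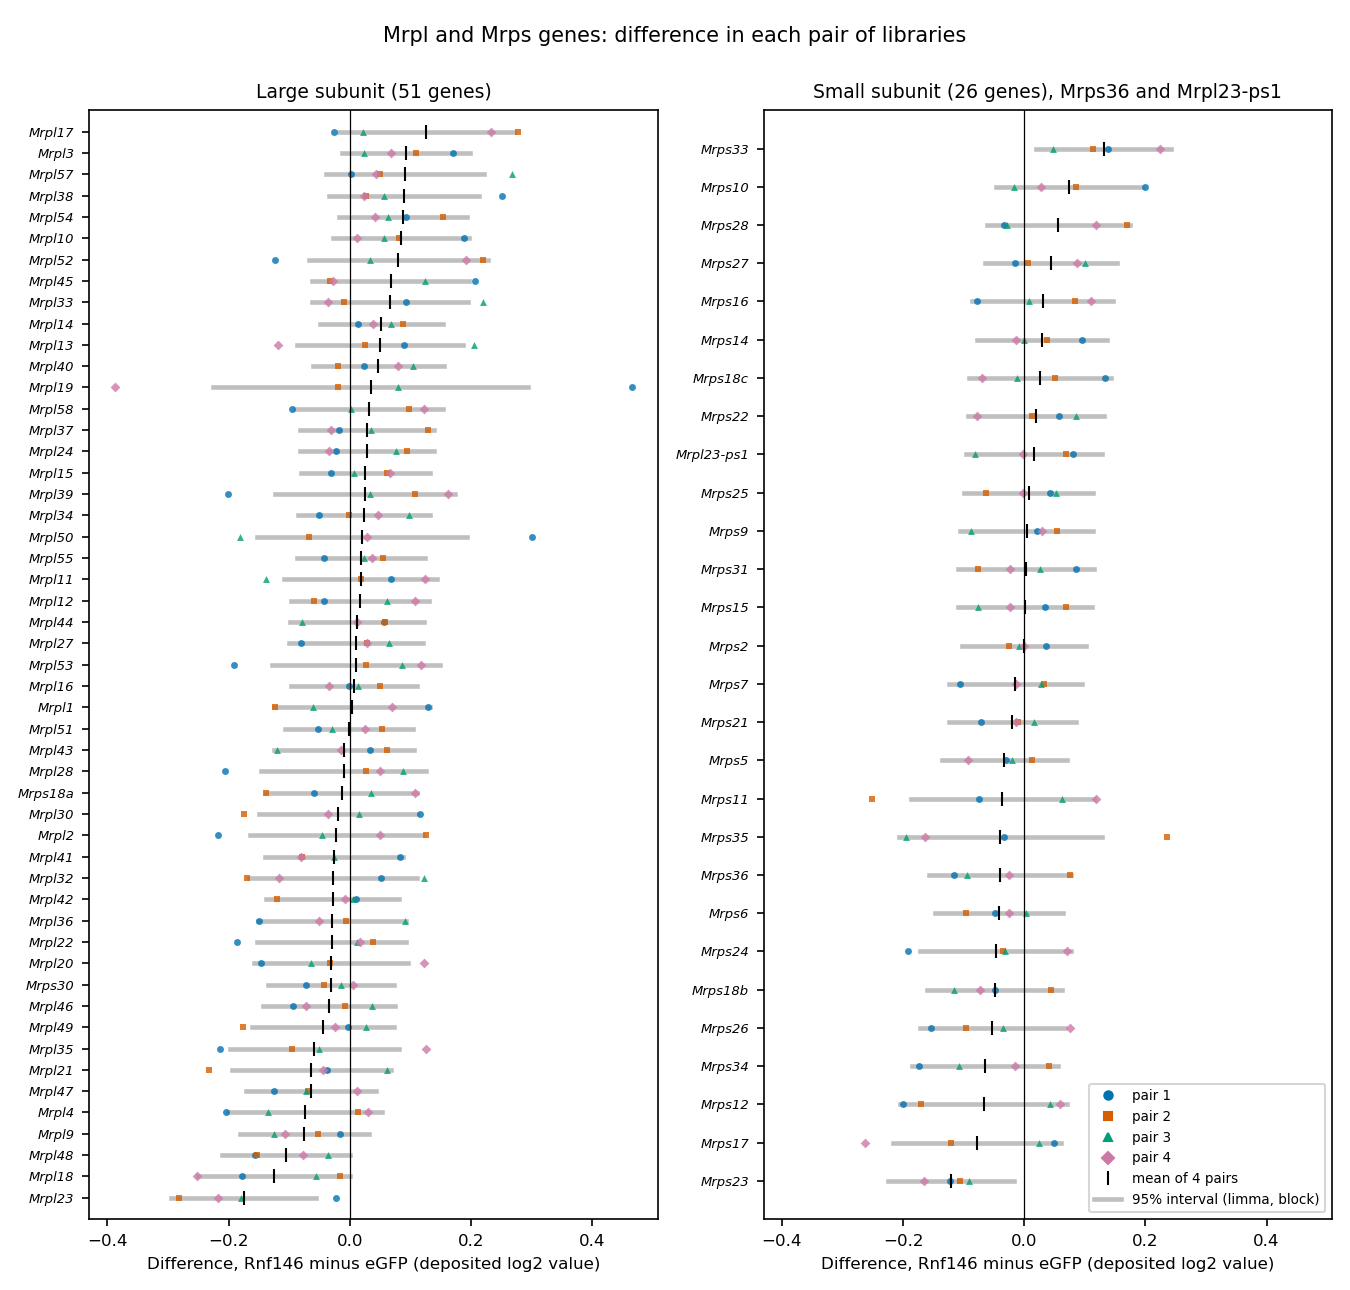
Differences of the 79 genes in each pair of libraries, Rnf146 minus eGFP in deposited log2 values on the horizontal axis, with the large subunit on the left and the small subunit, Mrps36 and Mrpl23-ps1 on the right. Symbols are the 4 pairs, black ticks their mean and grey bars the 95% interval from limma with the replicate block. The grey bars of 75 genes cross 0, and those of Mrpl23, Mrps23, Mrpl48 and Mrps33 do not.

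The members as a group lay on either side of 0 depending on the pair. The median difference of the 79 members was -0.027, 0.013, 0.014 and 0.011 in pairs 1 to 4, beside medians of 0.00021, 0.0022, 0.0037 and -0.0020 over all genes. In pair 1, 32 members were above 0, and in pairs 2, 3 and 4 the numbers were 43, 46 and 41. Pair 1 was also the pair in which the striatal and oligodendrocyte markers were below 0, and the relation of those markers to the members was not tested. The median of the 79 mean differences was 0.0030, and it was 0.00086 over all genes. Its sign was not stable, as it became -0.0015 without pair 3, -0.0075 without pair 4 and -0.0043 after quantile normalization.

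Both subunits had averages within 0.02 of 0 in every pair. The 51 large subunit genes averaged -0.012, -0.0020, 0.018 and 0.0084 in pairs 1 to 4, which gave 0.0030 ± 0.0129 (SD, n = 4 pairs). The 26 small subunit genes averaged -0.019, -0.00016, -0.013 and -0.0046, which gave -0.0091 ± 0.0083. The small subunit average was thus below 0 in all 4 pairs, and that of the large subunit in pairs 1 and 2. The large subunit average became -0.0019 both without pair 3 and after quantile normalization. Among large subunit genes 28 had a mean difference above 0 and 23 below, and among small subunit genes the numbers were 13 and 13. The genes were also split by whether the protein has a bacterial counterpart or is particular to mitochondria. Among the homologues of bacterial S18, *Mrps18c* was placed in the first class, and *Mrps18a* and *Mrps18b* in the second. In the large subunit the averages were -0.0049 ± 0.0152 for 30 genes with a counterpart and 0.014 ± 0.013 for 21 without, and in the small subunit -0.0072 ± 0.0072 for 16 genes and -0.012 ± 0.016 for 10.

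**Figure D2:**
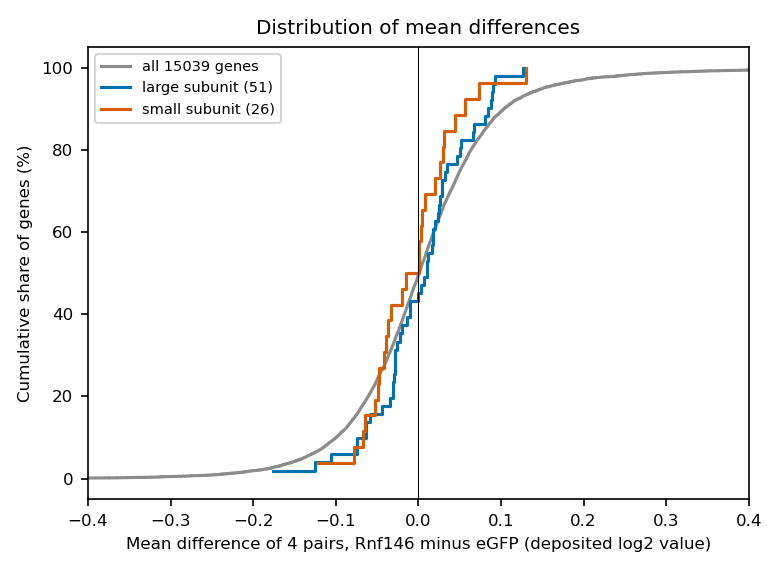
Cumulative share of genes (vertical axis, percent) against the mean difference of the 4 pairs, Rnf146 minus eGFP in deposited log2 values (horizontal axis, drawn from -0.4 to 0.4), for all 15039 genes, the large subunit and the small subunit. Both subunit curves rise from 0 to 100% between -0.175 and 0.131 and cross the middle near 0.

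Of the 79 members, 12 (15.2%) had the same direction in all 4 pairs, against 20.6% of all genes. In 7 of them (8.86%) every Rnf146 library lay above every eGFP library, where 10.4% of all genes did so. In 5 (6.33%) every Rnf146 library lay below, where the share of all genes was 10.2%. The 5 lower genes were *Mrpl9*, *Mrpl18*, *Mrpl23*, *Mrpl48* and *Mrps23*. The 7 higher genes were *Mrpl3*, *Mrpl10*, *Mrpl14*, *Mrpl38*, *Mrpl54*, *Mrpl57* and *Mrps33*. Of the others, 19 were above 0 in 3 pairs, 29 in 2 pairs and 19 in 1 pair.

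*Mrpl23*, which encodes the counterpart of a bacterial protein at the exit of the peptide tunnel, had the lowest mean difference. Its values were 8.73, 8.86, 8.81 and 8.83 in the eGFP libraries and 8.71, 8.58, 8.63 and 8.61 in the Rnf146 libraries. The groups did not overlap, and the Rnf146 library of pair 1 was nearly level with its eGFP partner while the other 3 were clearly lower. The pairs differed by -0.023, -0.282, -0.180 and -0.217, and it averaged -0.175 ± 0.110 (SD, n = 4 pairs). In limma with the block, its unadjusted p was 0.0096 and its adjusted p 0.223. Without pair 1, *Mrpl23* was the 1 member called, with a difference of -0.226 and an adjusted p of 0.0955, at a setting that called 2.8% of all genes.

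*Mrpl23-ps1* had values of 9.28, 9.28, 9.36 and 9.32 in the eGFP libraries and 9.36, 9.35, 9.28 and 9.32 in the Rnf146 libraries, so the groups overlapped. Its differences were 0.081, 0.068, -0.081 and -0.0027, with a mean of 0.016 ± 0.075. The pseudogene was higher in pairs 1 and 2 and level or lower in the other 2. The 2 genes were also summed with the deposited values taken as plain log2, a step added with the data in view. The differences of the sum were 0.040, -0.071, -0.121 and -0.088. The transformation was not stated and the values are centred, so this sum may differ from a sum of reads. The sum had a mean difference of -0.060 and an adjusted p of 0.674. Because the identical stretch prevents a certain split of the reads, the lower value of *Mrpl23* is uncertain.

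*Mrps23* encodes a small subunit protein without a bacterial counterpart and lies on chromosome 11 (88095176 to 88102345, plus strand). Its values were 10.0194, 10.0115, 10.0038 and 10.041 in the eGFP libraries and 9.8975, 9.9055, 9.9131 and 9.8759 in the Rnf146 libraries. All 4 Rnf146 libraries lay below all 4 eGFP libraries by a similar amount. The mean difference was -0.121 ± 0.032 (SD, n = 4 pairs) with a 95% interval of -0.224 to -0.018, and the adjusted p was 0.325. Its SD was the second smallest of all members.

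*Mrps33*, another small subunit gene particular to mitochondria (chromosome 6, 39777832 to 39787922, minus strand), had the highest mean difference. Its values were 10.08, 10.09, 10.13 and 10.04 in the eGFP libraries and 10.22, 10.21, 10.17 and 10.26 in the Rnf146 libraries. The Rnf146 libraries were all higher, most of all in pair 4. The mean difference was 0.131 ± 0.073, with a 95% interval of 0.019 to 0.243 and an adjusted p of 0.325. *Mrps23* and *Mrps33* were the lowest and highest small subunit genes, so their opposite signs follow from that ranking.

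*Mrpl48*, a large subunit gene particular to mitochondria (chromosome 7, 100194939 to 100257508, minus strand), overlaps *Rab6a* on the opposite strand. Its values were 10.72, 10.72, 10.66 and 10.69 in the eGFP libraries and 10.57, 10.57, 10.63 and 10.61 in the Rnf146 libraries. The groups did not overlap, and pairs 1 and 2 were farther apart than pairs 3 and 4. The mean difference was -0.106 ± 0.059, with an unadjusted p of 0.0495 and an adjusted p of 0.401.

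**Figure D3:**
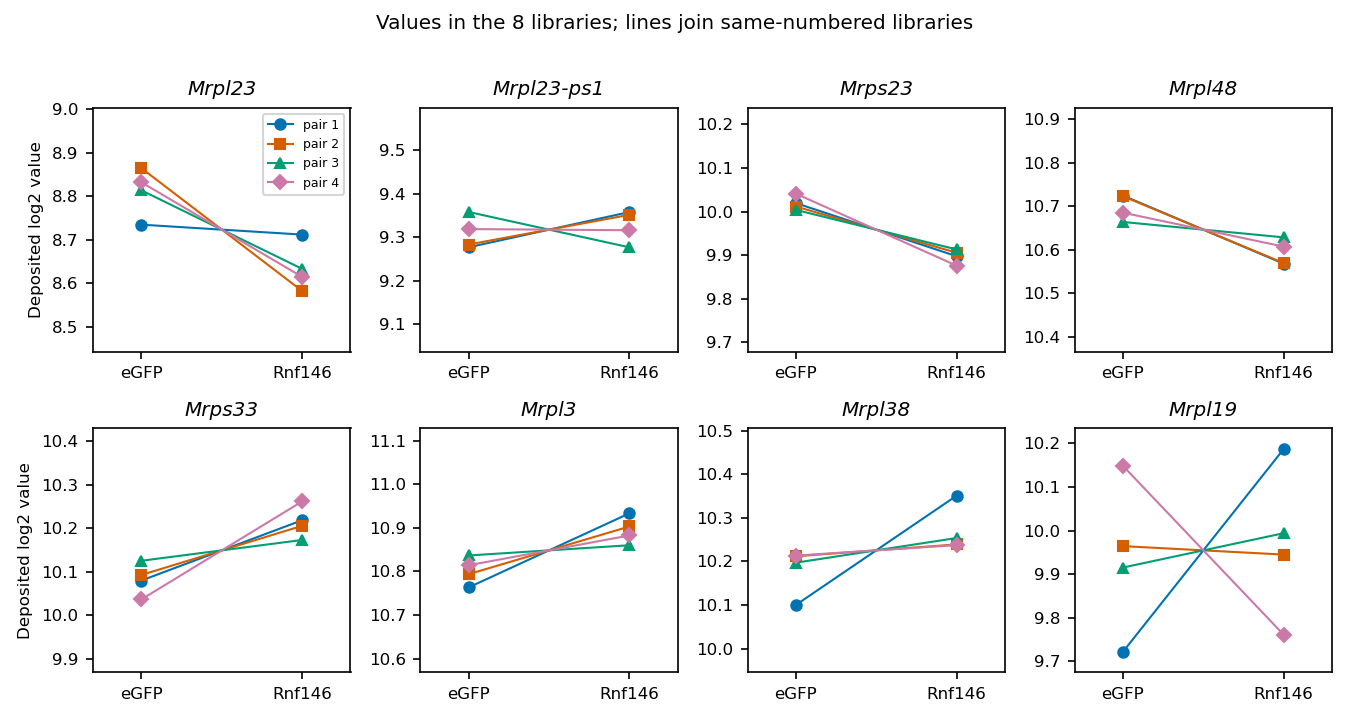
Deposited log2 values (vertical axes, each spanning the same number of units) of 8 genes in the eGFP and Rnf146 libraries, with lines joining libraries of the same replicate number. All 4 lines slope down for Mrpl23, Mrps23 and Mrpl48 and up for Mrps33, Mrpl3 and Mrpl38, while those of Mrpl23-ps1 and Mrpl19 slope both ways. None of these genes was called with the replicate block.

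The remaining large subunit genes at the ends of the range were not called either. *Mrpl18*, whose product has a counterpart in the bacterial central protuberance, differed by -0.177, -0.017, -0.056 and -0.252, with an adjusted p of 0.402. *Mrpl9* differed by -0.016, -0.053, -0.124 and -0.106, with an adjusted p of 0.557. Both were lower in every pair, by very unequal amounts in the case of *Mrpl18*, a gene that overlaps *Tcp1* on the opposite strand.

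At the upper end, *Mrpl17* had a mean of 0.127 ± 0.152, made by pairs 2 and 4 (0.278 and 0.234) while pairs 1 and 3 were at -0.027 and 0.022. *Mrpl3*, which encodes a core protein near the peptidyl transferase centre, differed by 0.170, 0.109, 0.023 and 0.068, with an adjusted p of 0.457. *Mrpl54* differed by 0.093, 0.153, 0.064 and 0.041, with an adjusted p of 0.485. The last 2 were higher in every pair, and *Mrpl17* was not. *Mrpl57* owed most of its mean of 0.090 ± 0.120 to pair 3, at 0.267, with at most 0.050 in the others. *Mrps17*, the fifth lowest member and a small subunit gene, differed by 0.049, -0.121, 0.024 and -0.262, in both directions.

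*Mrpl38*, a large subunit gene on chromosome 11 (116022641 to 116029700, minus strand), showed the same kind of dependence on 1 pair. Its values were 10.10, 10.21, 10.20 and 10.21 in the eGFP libraries and 10.35, 10.24, 10.25 and 10.24 in the Rnf146 libraries. Pair 1 stood apart with a difference of 0.251, while pairs 2, 3 and 4 differed by 0.027, 0.057 and 0.024. The mean difference was 0.090 ± 0.108 with an adjusted p of 0.546, and it was 0.036 without pair 1.

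Members with a known special role were not called. *Mrpl12* encodes the stalk protein that contacts translation factors, and its mean difference was 0.017 ± 0.080. *Mrpl58*, the peptidyl-tRNA hydrolase of the large subunit, was at 0.032 ± 0.10. *Mrpl45*, whose product faces the inner membrane near the tunnel exit, was at 0.068 ± 0.118, and *Mrpl44*, which carries an RNase III fold, at 0.012 ± 0.064. In each of these the SD over pairs was larger than the mean. *Mrps12*, the counterpart of the bacterial decoding-site protein, split into -0.200 and -0.170 in pairs 1 and 2 and 0.043 and 0.058 in pairs 3 and 4.

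The 3 homologues of bacterial S18 gave no shared direction. *Mrps18a* had a mean difference of -0.014 ± 0.107, *Mrps18b* of -0.049 ± 0.068 and *Mrps18c* of 0.026 ± 0.087. *Mrps22*, a mitochondria-specific small subunit gene, was at 0.020 ± 0.071. *Mrps30* was at -0.031 ± 0.033, and *Mrps36*, which does not belong to the mitoribosome, at -0.040 ± 0.086. All 11 genes named for a special role had adjusted p-values of 0.688 or more.

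The members also differed in their spread over the pairs. *Mrpl19* had the largest SD, 0.351. Its values were 9.72, 9.96, 9.92 and 10.15 in the eGFP libraries and 10.19, 9.94, 9.99 and 9.76 in the Rnf146 libraries. The order of the groups was opposite in pairs 1 and 4, where the differences were 0.465 and -0.388. *Mrpl50* differed by 0.302, -0.068, -0.182 and 0.029, and *Mrps35* by -0.033, 0.235, -0.196 and -0.164. At the other end, *Mrps2* had the smallest SD, 0.026, around a mean of 0.00031, and *Mrpl14* was above 0 in all pairs by 0.013 to 0.088. The mean of *Mrpl19* and that of *Mrps2* were both close to 0, but their 95% intervals were -0.226 to 0.294 and -0.102 to 0.103.

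The count of calls rested on the block. Without it, which treats the 8 centred values as independent libraries, 9 members (11.4%) were called, against 21.5% of all genes. The 5 lower genes among them were the same 5 that were lower in all pairs, and the 4 higher were *Mrpl3*, *Mrpl10*, *Mrpl54* and *Mrps33*. Their adjusted p-values from limma without the block ran from 0.0087 (*Mrps23*) to 0.081 (*Mrpl10*). With the block, the adjusted p of the same 9 ran from 0.223 to 0.557.

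Mitoribosomal genes are short, and some start close to a divergently transcribed neighbour. The canonical transcripts of the members had a median length of 1804 bases against 3474 over the genes matched to the annotation, and 46 of the 79 were 2176 bases or shorter, the limit below which 25% of the genes fell. Median GC content was 49.9% in both. Over all genes up to that length, the median difference was -0.0094, -0.010, -0.0041 and 0.0070 in the 4 pairs. After correction of the pair differences for GC content and length, 0 members were called and the averages were 0.0059 for the large and -0.0095 for the small subunit. The members are spread over 17 chromosomes, with 11 on chromosome 11 and 0 on X or Y. Of the 79, 34 overlap a gene of the table on the opposite strand and 6 overlap 1 on the same strand. The share of all genes with such overlaps was not determined. Whether counting used the strand was not stated, so the values of overlapping genes may share reads.

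For 13 members, a divergently transcribed gene of the table starts within 1000 bases of the canonical start, which gave 12 distinct gene pairs. The share of all genes with such a partner was not determined. In 1 of the gene pairs both partners are mitoribosomal. The canonical starts of *Mrpl46* (large subunit) and *Mrps11* (small subunit) on chromosome 7 leave 29 bases between them (78432838 to 78432866). Over their whole annotated extent, the genes overlap on opposite strands, so their values may share reads. The interval is shown here on the plus strand of GRCm39 because it lies between starts of both subunits.

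Mrpl46-Mrps11: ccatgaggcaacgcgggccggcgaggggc

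*Mrpl46* differed by -0.093, -0.0084, 0.036 and -0.073, and *Mrps11* by -0.075, -0.252, 0.063 and 0.118. Both lay below 0 in pairs 1 and 2 and above 0 in pair 3, and they took opposite signs in pair 4. The mean differences were -0.034 ± 0.059 and -0.036 ± 0.165, and neither gene was called. The other partners included *Sars2*, which encodes the mitochondrial seryl-tRNA synthetase, beside *Mrps12*, and *Twnk*, which encodes the mitochondrial DNA helicase, beside *Mrpl43*. *Sars2* had a mean difference of 0.015 ± 0.046 and *Twnk* of -0.030 ± 0.084. The partner farthest from 0 was *Apba3*, at -0.135 ± 0.134, beside *Mrpl54*, which was above 0. No partner was called, and their adjusted p-values ran from 0.346 to 0.948.

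The 250 bases before each canonical start were searched on both strands for 4 short motifs, with overlaps between motifs allowed. The letters CCGGAAG, a core bound by ETS family factors, were present in 14 members (17.7%) and in 9.07% of 14663 promoters. The core of the site for NRF1, a regulator of nuclear genes for mitochondrial proteins, was present in 7 (8.86%) against 5.21%. AAGATGGC, a core bound by YY1, was present in 3 (3.8%) against 1.87%, and TATAAA in 8 (10.1%) against 7.66%. Members with and without the ETS letters had median differences of 0.021 and 0.00031, and those with and without the NRF1 letters of 0.012 and 0.0020. For the other motifs the order was opposite. The medians with and without were -0.036 and 0.0038 for the YY1 letters, and -0.014 and 0.0030 for TATAAA. The window of *Mrpl38* (chr11:116029701-116029950, minus strand of GRCm39) is printed as an example of the ETS letters, which are in capitals as the reverse complement. Their first base lies 136 bases before the start.

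Mrpl38: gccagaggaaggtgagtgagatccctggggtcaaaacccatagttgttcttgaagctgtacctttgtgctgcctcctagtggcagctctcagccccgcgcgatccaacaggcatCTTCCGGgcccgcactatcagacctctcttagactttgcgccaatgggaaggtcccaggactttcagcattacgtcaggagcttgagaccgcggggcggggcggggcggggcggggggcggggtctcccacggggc

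No gene of the rest of the mitochondrial translation system was called, where the share of all genes called was 1.25%. At that share, lists this short hold few or no calls. The 5 subunits with other symbols included *Dap3*, a GTP-binding small subunit protein, at -0.040 ± 0.022 and *Aurkaip1* at 0.046 ± 0.067, and 0 of the 5 were called. Of 15 translation factors, 7 had a mean difference above 0 and 8 below, from -0.088 for the release factor *Mtrf1l* to 0.056 for the elongation factor *Gfm1*. Among 24 genes for mitoribosome assembly, 16 lay below 0 and 8 above, from -0.200 ± 0.294 for *Mrm1*, an rRNA methyltransferase, to 0.103 ± 0.108 for *Mterf3*.

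Of 17 mitochondrial aminoacyl-tRNA synthetases, 2 had an unadjusted p below 0.05 in limma, as did 12.4% of all genes, and 0 were called. *Fars2* (phenylalanine) was lowest, at -0.173, -0.106, -0.360 and -0.065 in the 4 pairs with an adjusted p of 0.270. *Nars2* (asparagine) was highest, at 0.082, 0.113, 0.124 and 0.179 with an adjusted p of 0.320. As the ends of the list, the 2 enzymes had opposite signs by choice, and each kept its sign in every pair. Among 16 genes of mitochondrial genome expression, *Mterf1a* was lowest at -0.085 ± 0.110. *Ppargc1a*, the coactivator of mitochondrial biogenesis, was highest at 0.182 ± 0.276, with -0.229 in pair 1 and 0.274 to 0.351 in the other pairs.

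The RNAs that the mitoribosome contains or translates spread widely between pairs. The 13 mitochondrially encoded mRNAs averaged 0.368, -0.046, 0.273 and 0.0013, which gave 0.149 ± 0.203. All 13 mean differences were above 0, from 0.043 (*mt-Co1*) to 0.508 (*mt-Nd3*), and 0 were called. These transcripts are cut from shared precursors, so the 13 are not independent. The 2 mitochondrial rRNAs averaged 0.247, -0.245, 0.241 and 0.013. The mitochondrial mRNAs were highest in pairs 1 and 3. The 79 members had their lowest median in pair 1 (-0.027) and their highest in pair 3 (0.014). A relation between the mitochondrial mRNAs and the members was not tested.

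Other large groups of housekeeping genes were compared by pair. The 78 cytosolic ribosomal protein genes averaged 0.023, -0.035, -0.059 and 0.033 in the 4 pairs, and the 79 nuclear OXPHOS genes 0.0098, 0.0064, -0.030 and 0.055. The SD of the 4 averages was 0.045 and 0.035 in these groups and 0.0089 over the 79 mitoribosomal members. No gene of either group was called, where the share of all genes called was 1.25%.

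**Figure D4:**
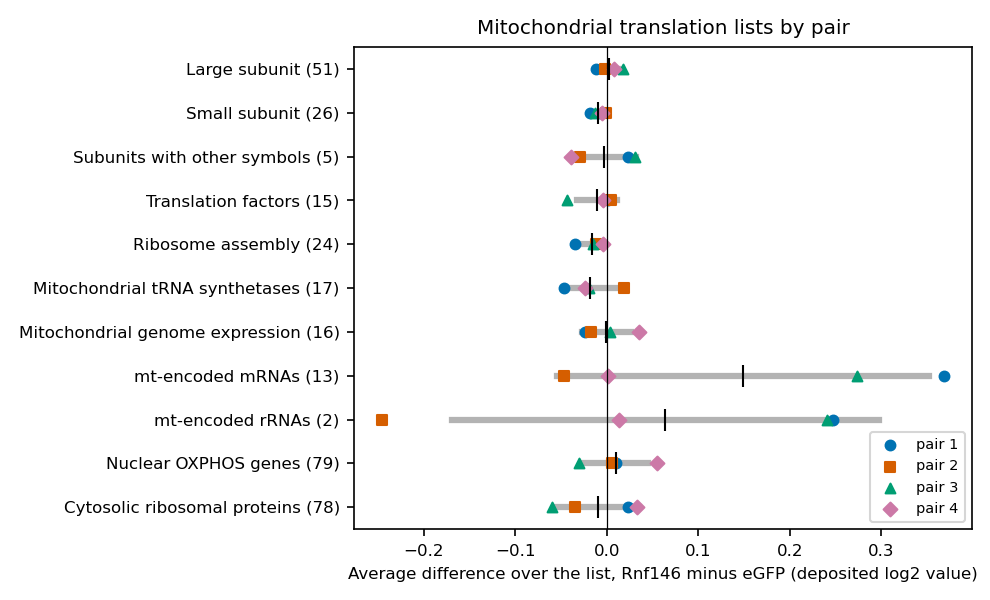
Average difference over each list of genes (horizontal axis, Rnf146 minus eGFP in deposited log2 values) in each of the 4 pairs, with the number of genes in parentheses, black ticks for the mean and grey bars for the mean ± SD of the 4 pairs. The points of both mitoribosomal subunits lie within 0.02 of 0, and those of the mitochondrially encoded mRNAs spread from -0.046 to 0.368.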

How the data were processed

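PFC RNA of 8 libraries was analysed, 4 per group, with groups and replicate numbers taken from the sample labels. The members and gene lists were chosen with earlier results of these data known.

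Per the paper's methods, the authors removed adapters and low-quality bases (Cutadapt) and estimated transcript abundance in Salmon 1.9.0 from GENCODE vM30 (GRCm39), and the submitters' processing notes also name DESeq2. The deposited values are log2 values centred within same-numbered libraries, and the normalization, transformation and centring are not given in the sources used here. Because counts were not used here, counting precision is unknown.

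Linear models (limma 3.58.1, R 4.3.3, trended eBayes) were fitted to the whole table of 15039 genes, blocked by replicate number, and Benjamini-Hochberg adjustment covered all of them. Calls required an adjusted p no larger than 0.1. The block follows from the centring, which fixes the correlation of same-numbered deviations at -1. The pairing comes from replicate numbers in the labels, which do not state what a pair shared, so p-values measure only the spread between these libraries. The fit was also run on simulated, independent differences with shifts larger than the difference of any member. That run does not show how the fit handles differences of the members' size.

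Named members were the 6 highest and 6 lowest mean differences, the 3 largest and 3 smallest SDs, and 11 genes with special roles, besides any called. *Mrpl10*, *Mrpl46*, *Mrps11*, *Mrpl23-ps1* and the divergent partners were chosen after their values were seen. Of each other list, the highest and lowest genes were named. Coordinates, lengths, GC content and promoters came from GENCODE vM39 (GRCm39), to which 14664 genes (97.5%) and all 79 members were matched, and near copies were found with BLAST 2.17.0.

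The alternatives were no block, the lowest 25% of genes left out, median centring, quantile normalization, untrended and robust variances, an adjusted p of 0.05, a GC content and length correction, and each pair left out.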

Additional observations from a re-analysis of the deposited data

Results flagged for a closer look

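The pair differences of *Mrpl38* held a value far from the others. Its difference was 0.251 in pair 1 and lay between 0.024 and 0.057 in pairs 2, 3 and 4, so that the gap to the nearest pair was 0.856 of the whole range, above Dixon's 95% critical value. It was the only flag among 31 sets of 4 differences tested, and chance flags about 1 in 20 such sets.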

How the results depend on the processing

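Without the replicate block, 9 members and 3226 genes in all were called, against 0 and 188 with it. Centred pairs leave 4 independent differences, so the test without the block counts each difference as a pair of independent values. At an adjusted p of 0.05, 80 genes in all were called. With 1 pair left out, 0 to 1 members and 14 to 421 of all genes were called, with 421 without pair 1, 42 without pair 2 and 14 without pair 4. The number of members with the same direction in the remaining pairs was 8 to 19 for higher and 7 to 11 for lower, as 3 pairs share a sign more easily than 4.

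The 28 named members gave 336 values under the alternatives, including the sum of *Mrpl23* and *Mrpl23-ps1* that was run for *Mrpl23* alone, and *Mrpl23* gave none with the lowest 25% of genes left out. Of these values, 311 kept their direction and call, 9 became called and 16 changed sign. Some of the values could not change by design. No member was called at an adjusted p of 0.1, so the limit of 0.05 could change nothing. The fits without the block or with untrended or robust variances keep each difference, so no sign could change there. *Mrps2* became -0.0051 under quantile normalization. After GC content and length correction, *Mrpl50* became -0.0037, *Mrps2* -0.022 and *Mrps18a* 0.011. With 1 pair left out, the differences ranged from -0.109 to 0.175 for *Mrpl19*, from -0.073 to 0.088 for *Mrpl50*, from -0.131 to 0.013 for *Mrps35*, from -0.012 to 0.0090 for *Mrps2*, from -0.0036 to 0.042 for *Mrpl44*, from -0.054 to 0.028 for *Mrps18a*, from -0.010 to 0.058 for *Mrps18c*, from -0.0022 to 0.052 for *Mrps22* and from -0.013 to 0.042 for *Mrpl12*. The cause of these changes was not tested. The subunit averages and the median of the members moved by less than the spread between pairs under the alternatives run, although the median and the large subunit average changed sign under some of them.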
